A study of Mus musculus with 30 samples.

Results

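Of the 9 complement genes considered here, C1qa, C1qb, C1qc, C3, C4b, C3ar1, C5ar1, Itgam and Serping1, the 7 whose symbol has a row in the deposited table were described, among 14225 rows for 13483 symbols, and each of the 7 was represented by 1 transcript. C5ar1 and Itgam were not analysed here. Itgam encodes CD11B, the antigen by which the cells were captured with magnetic beads. Microglia were isolated from the whole brain of C57BL/6J offspring whose dams had received saline (Saline) or poly(I:C), a double-stranded RNA mimetic that sets off maternal immune activation (MIA). Saline and MIA offspring were taken at E17, P7 and P20. At P60 both kinds of offspring had been kept on control chow (Saline + CTRL, MIA + CTRL) or had received chow with the CSF1R inhibitor PLX5622, which depletes microglia, followed by control chow for repopulation (Saline + MG-REP, MIA + MG-REP). A library stands for 1 litter at E17, 3 pooled brains at P7 and 1 brain at P20 and P60, with 3 libraries in each of 10 groups.

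Complement is a cascade of secreted proteins. C1q, a protein of A, B and C chains encoded by C1qa, C1qb and C1qc, binds its target and starts the classical pathway, in which the C4 protein and then C3 are cleaved, and C3 fragments tag the target for uptake by CD11B-bearing phagocytes. The C3a fragment acts on the receptor encoded by C3ar1, and Serping1 encodes the C1 inhibitor, which blocks the proteases that travel with C1q. Microglia are the main source of C1q in the brain, and C1q and C3 are known for their part in the removal of synapses during development.

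All 7 genes lie on the minus strand in the RefSeq annotation of GRCm38.p6, the assembly on which mm10 is built. C1qb (chr4:136880126-136886200), C1qc (chr4:136889801-136892936) and C1qa (chr4:136895916-136898844) sit side by side within 18719 bases, each with 3 exons. C3 (chr17:57203967-57228136) and C4b (chr17:34728139-34743902) have 41 exons each. C3ar1 (chr6:122847140-122856157) has 2 exons and Serping1 (chr2:84765360-84775444) has 8.

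Promoters were shown for the C1q chains, because these moved together over the groups, and for C3, because it was the member that changed after repopulation. Each run holds 250 bases before and 50 bases after the start site, read on the minus strand of GRCm38.p6 from RefSeq. Of the 7 members, C1qb, C1qc, C3 and C3ar1 were matched in the promoter table. Capitals mark GAGGAA, the core of a PU.1-type ETS motif, in C1qb and its reverse complement TTCCTC in C1qc, and a match to the C/EBP letters TTGCNNAA in C3. The windows are chr4:136886151-136886450 for C1qb, chr4:136892865-136893164 for C1qc and chr17:57228087-57228386 for C3.
C1qb: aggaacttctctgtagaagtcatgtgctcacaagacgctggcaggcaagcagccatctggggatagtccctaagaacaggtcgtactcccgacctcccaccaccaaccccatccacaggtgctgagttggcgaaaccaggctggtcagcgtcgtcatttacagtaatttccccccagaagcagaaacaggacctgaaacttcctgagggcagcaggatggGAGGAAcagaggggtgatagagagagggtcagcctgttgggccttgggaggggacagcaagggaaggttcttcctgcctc
C1qc: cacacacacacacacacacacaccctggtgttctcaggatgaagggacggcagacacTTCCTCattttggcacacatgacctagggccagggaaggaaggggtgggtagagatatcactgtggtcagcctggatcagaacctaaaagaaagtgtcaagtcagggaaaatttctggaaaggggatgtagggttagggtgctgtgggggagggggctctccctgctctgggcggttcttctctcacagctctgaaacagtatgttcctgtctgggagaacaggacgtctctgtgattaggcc
C3: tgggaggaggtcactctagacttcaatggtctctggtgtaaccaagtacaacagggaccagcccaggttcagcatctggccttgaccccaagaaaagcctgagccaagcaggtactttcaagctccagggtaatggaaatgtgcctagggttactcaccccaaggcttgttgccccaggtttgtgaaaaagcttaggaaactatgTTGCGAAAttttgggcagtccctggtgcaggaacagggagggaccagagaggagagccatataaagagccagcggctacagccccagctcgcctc

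The ETS letters began at position -30 from the start site in C1qb and at -193, on the other strand, in C1qc. On either strand they occurred in 28.3% of 32851 mouse promoters of the same length. The C/EBP letters began at -45 in C3 and occurred in 10.8% of promoters. The interferon-stimulated response element (3.44% of promoters), the interferon gamma letters TTCNNNGAA (8.3%) and CCAAT (37.4%) were found in 0 of the 4 matched windows. Some of these letters can overlap, and a match is a description of the window alone.

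The 3 C1q chains were among the most abundant transcripts of every library, with C1qa ranked 4 to 14, C1qb 5 to 10 and C1qc 6 to 9 by TPM (a level scaled by transcript length and library total). Together they made up 1.18% to 3.07% of the TPM of a library, with a median of 2.31%. C3ar1 ranked 149 to 816 with 193 to 786 TPM. C3 reached 6.18 to 64.1 TPM, C4b 0.73 to 53.2 TPM and Serping1 6.68 to 38.9 TPM. The transcript of the receptor was thus far more abundant than that of its ligand precursor in all 30 libraries of isolated cells. Correlations between replicates of a group over all rows were 0.956 to 0.993. The 7 measured microglia markers of a list of 8 summed to 12990 to 41280 TPM, and markers of other cells were present in all groups, so their values stand beside the results they move with. In RNA of bead-isolated cells, fewer cells of a type and less RNA per cell cannot be told apart.

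Of the C1q chains, C1qa was higher at P20 than at P7 in both treatments, and C1qb and C1qc in MIA offspring. C1qa had 4748, 5165 and 5489 TPM in P7 Saline and 6315, 9172 and 9102 TPM in P20 Saline libraries. In MIA offspring it had 5726, 5587 and 3625 TPM at P7 and 8352, 9181 and 9422 TPM at P20. No P20 library overlapped the P7 libraries of its treatment. The log2 fold change of C1qa from P7 to P20, a difference of mean log2(TPM + 1), was 0.66 ± 0.21 (SE, n = 3 per group, adjusted p = 0.0193) in Saline and 0.88 ± 0.21 (adjusted p = 0.00241) in MIA offspring, by limma over all rows. In all, 4 of the 7 members passed this step in Saline offspring, where 36.2% of all rows did, and 4 of 7 in MIA offspring, where 35.6% did.

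C1qb and C1qc passed the same step in MIA offspring. C1qb had 6325, 6069 and 3987 TPM at P7 and 7814, 8557 and 9032 TPM at P20, a log2 fold change of 0.66 ± 0.22 (adjusted p = 0.0192). C1qc had 6901, 6592 and 4414 TPM at P7 and 8160, 8777 and 8923 TPM at P20, a log2 fold change of 0.56 ± 0.21 (adjusted p = 0.0388). In both chains the third MIA library at P7 was the lowest, and the groups did not overlap. That library was also lowest of its group in microglia markers, at 16400 TPM against 23170 and 23660 TPM. It was highest of its group in astrocyte (1467 TPM, against 493 and 468 TPM) and endothelial markers (2230 TPM, against 1152 and 1360 TPM). The part of this in the C1q values was not tested. In Saline offspring the log2 fold changes were 0.39 for C1qb (adjusted p = 0.169) and 0.28 for C1qc (adjusted p = 0.312), and the difference of this step between Saline and MIA offspring was not tested.

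Apart from C1qa in MIA offspring, these C1q calls were close to the threshold. C1qa in MIA offspring passed under all alternatives, whereas in Saline offspring its adjusted p was 0.0721 without the P7 library 1, 0.0818 and 0.0711 without the P20 libraries 2 and 3, and 0.0887 after median-ratio scaling. Without the third P7 MIA library the log2 fold change was 0.45 (adjusted p = 0.134) for C1qb and 0.35 (adjusted p = 0.223) for C1qc. The adjusted p also passed 0.05 without the P20 MIA libraries 2 and 3 (0.0517 and 0.0612 for C1qb, 0.0914 and 0.0924 for C1qc) and, for C1qc, without P20 MIA library 1 (0.0631). After quantile normalization, which sets these top-ranked genes to nearly fixed values, the log2 fold change was 0.026 for C1qb and -0.026 for C1qc. The adjusted p was then 0.878 and 0.856. Both calls were also lost after median-ratio scaling (adjusted p = 0.0596 for C1qb and 0.096 for C1qc). In a fit of the compared groups alone the adjusted p was 0.055 and 0.0863. Microglia markers moved with the chains, at 16400 to 23660 TPM in P7 and 28230 to 40160 TPM in P20 libraries, as did oligodendrocyte markers (139 to 278 against 1167 to 3212 TPM). Their part in the result was not tested.

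From E17 to P7, and from P20 to P60 on control chow, no C1q chain passed the test. At E17, C1qa had 5012, 6454 and 6185 TPM in Saline and 3523, 5962 and 4460 TPM in MIA libraries. At P60, it had 8750.3, 6809.7 and 10546 TPM in Saline + CTRL and 6109.8, 8499 and 9312 TPM in MIA + CTRL libraries. In MG-REP libraries C1qa had 8055, 9293 and 9276 TPM for Saline and 10541, 11149 and 10025 TPM for MIA offspring. The 3 MIA + MG-REP libraries thus held 3 of the 4 highest C1qa levels of the series, with a log2 fold change over MIA + CTRL of 0.43 (95% interval -0.01 to 0.87, adjusted p = 0.826), which did not pass. By group means the order of C1qa was E17 MIA, P7 MIA, P7 Saline, E17 Saline, P60 MIA + CTRL, P20 Saline, P60 Saline + CTRL, P60 Saline + MG-REP, P20 MIA and P60 MIA + MG-REP, and the libraries of neighbours in it overlapped except between P20 MIA (9422 TPM at most) and MIA + MG-REP (10025 TPM at least).

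**Figure D1:**
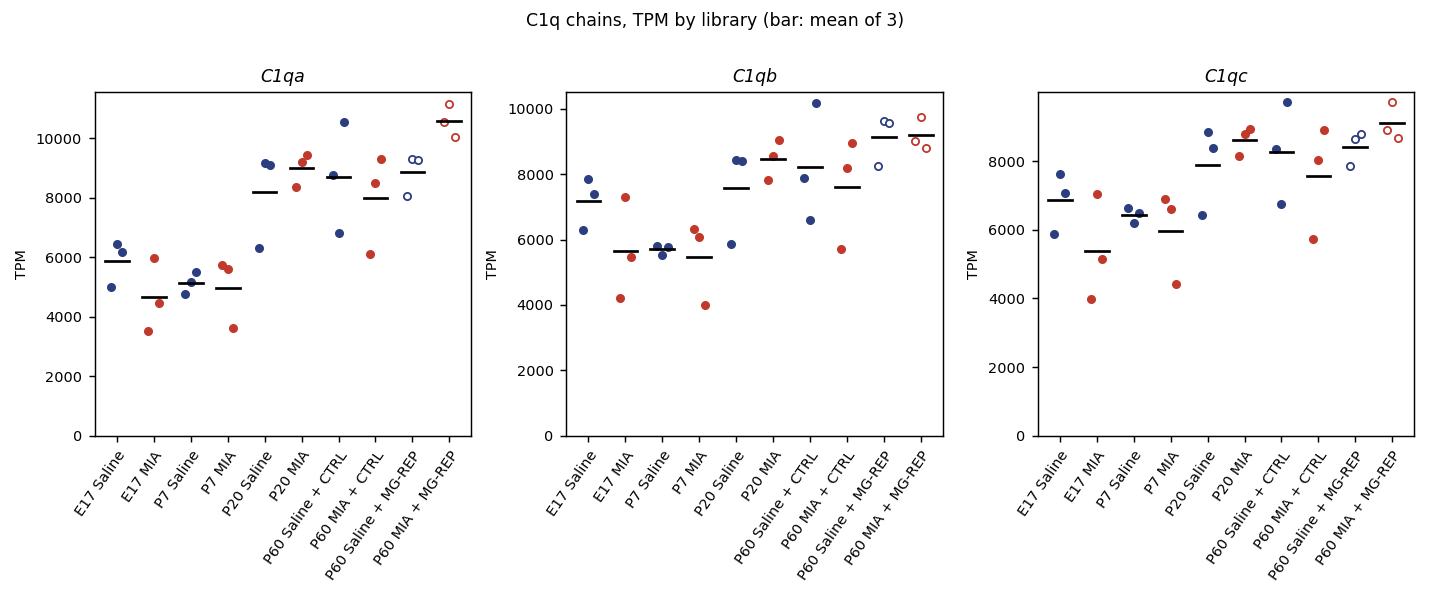
TPM of C1qa, C1qb and C1qc (linear axes from 0) in each of 30 libraries by group, with blue for Saline, red for MIA, open points for MG-REP and bars for the mean of 3. E17 and P7 libraries of C1qa lie between 3523 and 6454 TPM, and those of P20 and P60 between 6109.8 and 11149 TPM.

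The 3 chains followed each other over the 10 group means, with Pearson correlations of log2(TPM + 1) of 0.98 for C1qa with C1qc, 0.96 for C1qa with C1qb and 0.95 for C1qb with C1qc. As a description of 10 points that share their libraries, the genes most like C1qa were Tlr13 (r = 0.98), Iscu (0.98) and Ppfia4 (0.98). Those most like C1qb were Ctsd (0.98), which encodes the lysosomal protease cathepsin D, and the other 2 chains. Those most like C1qc were C1qa, Unc93b1 (0.96) and Iscu (0.96).

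The balance between the chains nevertheless differed by age. The ratio of C1qb to C1qa TPM was 1.20 to 1.25 in E17 Saline and 1.20 to 1.23 in E17 MIA libraries, and 0.90 to 0.97 in the 6 CTRL libraries at P60. The ratio of C1qc to C1qa was 1.13 to 1.18 at E17 and 0.92 to 0.99 in the CTRL libraries. Both ratios exceeded 1 in every E17 and P7 library. At P7, Saline library 1 stood apart, at 1.22 for C1qb and 1.40 for C1qc, against at most 1.07 and 1.20 in the other Saline libraries. The ratio of C1qc to C1qb was 0.93 to 0.97 at E17 and 1.09 to 1.15 at P7. Ratios between transcripts of 1 library do not depend on its scaling, and no test was made of them.

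At P60 the ratio of C1qb to C1qa separated the MG-REP groups in opposite directions. It was 1.03, 1.04 and 1.03 in Saline + MG-REP against 0.90, 0.97 and 0.97 in Saline + CTRL libraries. In MIA + MG-REP libraries it was 0.86, 0.88 and 0.88, against 0.93, 0.96 and 0.96 in MIA + CTRL. All MG-REP libraries lay above their controls in Saline offspring and below them in MIA offspring. The ratio of C1qc to C1qa was 0.85 to 0.87 in MIA + MG-REP libraries, below the 0.92 to 0.99 of the other 9 libraries of that age.

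**Figure D2:**
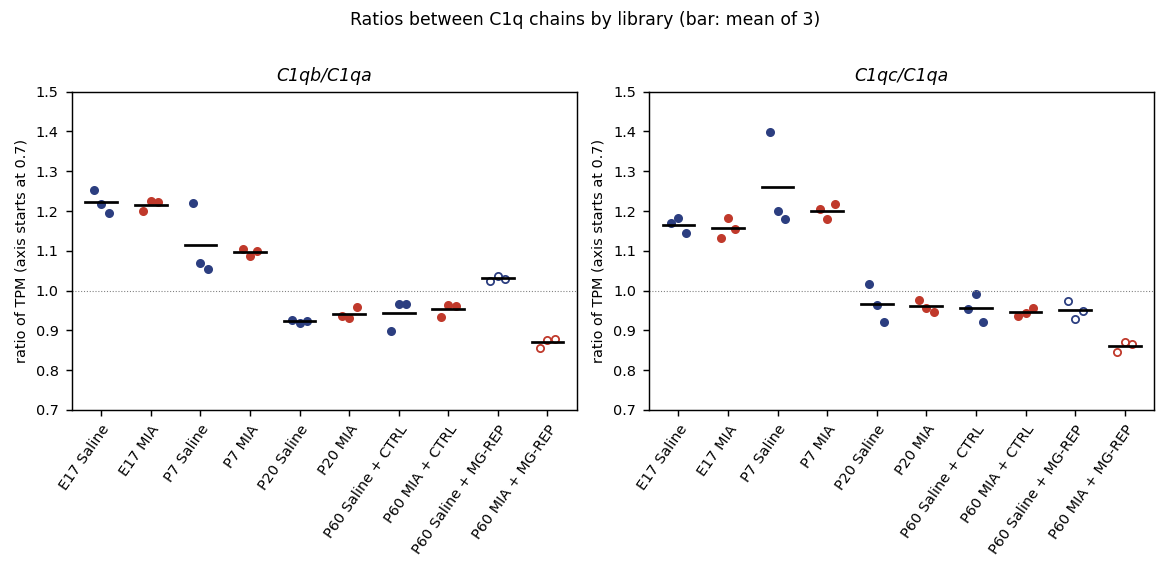
Ratio of C1qb to C1qa TPM (left) and of C1qc to C1qa TPM (right) per library, on axes that start at 0.7, with blue for Saline, red for MIA, open points for MG-REP and bars for the mean of 3. The ratio of C1qb to C1qa is 1.03 to 1.04 in Saline + MG-REP and 0.86 to 0.88 in MIA + MG-REP libraries, on either side of the CTRL libraries.

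C4b, which encodes the C4 protein cleaved on activation by C1, rose between E17 and P7. It had 1.29, 0.73 and 1.45 TPM in E17 Saline and 13.04, 14.3 and 11.9 TPM in P7 Saline libraries. In MIA offspring it had 1.06, 1.69 and 1.31 TPM at E17 and 13.9, 12.7 and 16.3 TPM at P7. The groups were far apart in either treatment. The log2 fold change was 2.72 ± 0.35 (adjusted p = 5.13e-05) in Saline and 2.70 ± 0.35 (adjusted p = 6.38e-05) in MIA offspring, on a scale that understates the change of low genes. C4b was the only 1 of 7 members to pass this step, where 4.32% of rows passed in Saline and 2.39% in MIA offspring, and it passed under all alternatives.

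From P7 to P20, C4b had a further log2 fold change of 0.95 ± 0.35 in Saline offspring (adjusted p = 0.0387). The P20 Saline libraries had 19.6, 16.8 and 53.2 TPM, so that the third was far above the others. Without it the log2 fold change was 0.45 (adjusted p = 0.309), and the call was also lost without each P7 Saline library (adjusted p = 0.0829, 0.0606 and 0.0933) and in a fit of the compared groups alone (adjusted p = 0.0925). In MIA offspring C4b had 24.4, 18.0 and 18.1 TPM at P20, a log2 fold change of 0.46 (adjusted p = 0.327). At P60 it had 33.0, 28.1 and 22.7 TPM in Saline + CTRL, 34.8, 23.7 and 24.3 TPM in MIA + CTRL, 13.3, 41.4 and 46.0 TPM in Saline + MG-REP and 22.0, 22.8 and 26.2 TPM in MIA + MG-REP libraries. The first Saline + MG-REP library was below all other P60 libraries, and no P60 contrast of C4b passed. By group means the order was E17 Saline, E17 MIA, P7 Saline, P7 MIA, P20 MIA, MIA + MG-REP, MIA + CTRL, Saline + CTRL, P20 Saline and Saline + MG-REP, in which groups from P20 on overlapped.

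In Saline offspring the summed astrocyte markers were higher at the ages at which C4b was higher. All 7 genes of the astrocyte list were measured, and their summed level was 187 to 323 TPM in E17 Saline, 508 to 771 TPM in P7 Saline and 1243 to 2201 TPM in P20 Saline libraries. In MIA offspring the sum overlapped between E17 (593, 166 and 438 TPM) and P7 (493, 468 and 1467 TPM), the ages between which C4b rose. The first Saline + MG-REP library, lowest in C4b, was also lowest of the P60 libraries in that sum, at 508.9 TPM against 1387 and 1729 TPM in the other 2. This match was not particular to astrocyte markers. That library was also lowest at P60 in oligodendrocyte (180 TPM), neuron (23.1 TPM), endothelial (340 TPM), fibroblast and mural (136 TPM) and choroid plexus markers (411 TPM). It was lowest in microglia markers too (16890 TPM), and highest in border macrophage markers (1320 TPM). The third P20 Saline library, highest in C4b, had 1243 TPM, the lowest sum of its group. The gene most like C4b over the 10 group means was Gpr37l1 (r = 0.99), a receptor gene known from astrocytes, followed by Abcc1 (0.98) and Ramp1 (0.98). The part of astrocyte RNA in the C4b values was not tested. Of the 40-base windows of the C4b transcript, 41.9% also occur in its near copy C4a, so the C4b level is uncertain, although the C4a row itself held 0.39 to 1.44 TPM. For C1qa, C1qb, C1qc, C3 and Serping1 that share was 0%.

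C3, the central protein of the cascade, fell between P7 and P20 in Saline offspring and was higher after repopulation in both treatments. It had 25.8, 26.6 and 38.1 TPM in E17 Saline, 17.3, 23.3 and 18.9 TPM in P7 Saline and 8.14, 9.12 and 9.07 TPM in P20 Saline libraries. The P7 and P20 libraries did not overlap, for a log2 fold change of -1.08 ± 0.35 (adjusted p = 0.0183). The adjusted p was 0.0685 without P7 Saline library 2 and 0.0544 without P20 Saline library 1. In MIA offspring C3 had 15.9, 34.2 and 19.1 TPM at E17, 21.6, 19.3 and 14.5 TPM at P7 and 14.9, 13.7 and 11.8 TPM at P20. These neighbouring groups overlapped, and the log2 fold change from P7 to P20 was -0.42 (adjusted p = 0.376).

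At P60, C3 had 7.64, 8.67 and 6.43 TPM in Saline + CTRL and 12.9, 64.1 and 44.8 TPM in Saline + MG-REP libraries. All 3 MG-REP libraries were above the controls, and they spanned 12.9 to 64.1 TPM. The log2 fold change was 2.02 ± 0.35 (adjusted p = 9.99e-05), which made C3 the 1 of 7 members to pass in Saline offspring, where 26.7% of rows passed. In MIA offspring C3 had 7.61, 6.27 and 6.18 TPM in CTRL and 27.9, 24.1 and 19.4 TPM in MG-REP libraries, again without overlap, a log2 fold change of 1.68 ± 0.35 (adjusted p = 0.0204). There it was also the 1 of 7 members to pass, where 0.555% of rows passed. The difference between the log2 fold changes of MIA and Saline offspring was -0.34 (95% interval -1.36 to 0.68, adjusted p = 0.803), so that no difference in the response of C3 was detectable. This difference was -0.998 without Saline + MG-REP library 1 and 0.11 without library 2. Between the repopulated groups themselves, C3 had a log2 fold change of -0.50 in MIA against Saline offspring (adjusted p = 0.352), which was -1.15 (adjusted p = 0.00268) without Saline + MG-REP library 1 and -0.04 without library 2. In that interaction 0 of 7 members passed, and 10.5% of all rows did.

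The rise of C3 depended on libraries and settings to different degrees. In Saline offspring its log2 fold change was 2.68 without the first and 1.57 without the second MG-REP library, with adjusted p of 3.19e-08 and 0.00126, whereas a fit of the compared groups alone gave an adjusted p of 0.057. In MIA offspring the call was lost without MIA + CTRL library 2 or 3 (log2 fold change 1.64 and 1.63, adjusted p = 0.109 and 0.0950) and without MIA + MG-REP library 1 or 2 (1.56 and 1.66, adjusted p = 0.141 and 0.0917). It was also lost with the replicate number as a block (adjusted p = 0.0739) and with Xist as a covariate (log2 fold change 1.55, adjusted p = 0.287). Xist, which marks female cells, had 159 to 174 TPM in all 6 MG-REP libraries, 124 and 140 TPM in library 1 of the CTRL groups and 0.14 to 0.29 TPM in their other 4 libraries. In those 2 CTRL libraries with Xist, C3 had 7.64 and 7.61 TPM, below every MG-REP library. Only library 1 of each CTRL group was high in Xist, so sex and MG-REP cannot be fully told apart. This holds for every contrast of MG-REP against CTRL. Every P20 library had 172 to 193 TPM of Xist, so sex and age cannot be fully told apart from P20 to P60 on control chow. The pools of E17 and P7 had 80.1 to 222 TPM, and the step from P7 pools to single P20 brains may carry the same limit. The part of sex was not tested in any of these contrasts.

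Other cells and states also differed between these groups. The 7 measured monocyte and neutrophil markers of a list of 8 summed to 87.6, 4949 and 333 TPM in the Saline + MG-REP libraries and 685 to 863 TPM in Saline + CTRL. The second Saline + MG-REP library, highest in C3, was thus highest in these markers, but libraries 1 and 3, below the controls in the sum, were above them in C3. Neutrophil genes such as S100a8, at 15.2 to 2754 TPM in Saline + MG-REP libraries, made up much of that sum. Ccr2, the monocyte receptor gene of the list, had 49.9 to 64.1 TPM in Saline + MG-REP and 18.1 to 19.6 TPM in Saline + CTRL libraries. It had 20.8 to 29.8 TPM in MIA + MG-REP and 13.6 to 19.0 TPM in MIA + CTRL libraries. Ccr2 was thus above the controls in all 6 MG-REP libraries, as C3 was. Plac8 and Ly6c2 of the same list were not. Plac8 had 2.06 to 28.55 TPM in Saline + MG-REP and 13.26 to 37.35 TPM in Saline + CTRL libraries, and overlapped in MIA offspring. Ly6c2 had 0.3 to 42.82 TPM in Saline + MG-REP and 6.67 to 12.02 TPM in Saline + CTRL libraries. In MIA offspring Ly6c2 was above the controls (8.87 to 10.81 against 3.79 to 8.62 TPM). Interferon response genes (10 measured of 12) summed to 1776, 2540 and 2969 TPM in Saline + MG-REP and 396 to 600 TPM in Saline + CTRL libraries. Of the 10, 9 passed as higher there (median log2 fold change 1.91), where 26.7% of all rows passed. The sum was 597 to 772 TPM in MIA + MG-REP and 429 to 524 TPM in MIA + CTRL libraries. In MIA offspring 1 of the 10 passed as higher (median log2 fold change 0.60), where 0.555% of all rows passed. Border macrophage markers (6 measured of 7) summed to 687 to 1320 TPM in Saline + MG-REP and 422 to 568 TPM in Saline + CTRL, and to 267 to 398 TPM in MIA + MG-REP and 412 to 441 TPM in MIA + CTRL. The higher sum in Saline + MG-REP was that of Pf4 (408 to 901 TPM, against 122 to 156 TPM in Saline + CTRL), whereas Mrc1, Lyve1, Cbr2 and F13a1 overlapped the controls and Cd163 was below them. Microglia markers were 16890 to 19250 TPM in Saline + MG-REP and 29050 to 41280 TPM in Saline + CTRL libraries. The part of these in the C3 values was not tested. The genes most like C3 over the 10 group means were Map4k1 (r = 0.95), Rps9 (0.94) and C920009B18Rik (0.93). The C3 gene also contains the microRNA gene Mir6978 on the same strand.

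**Figure D3:**
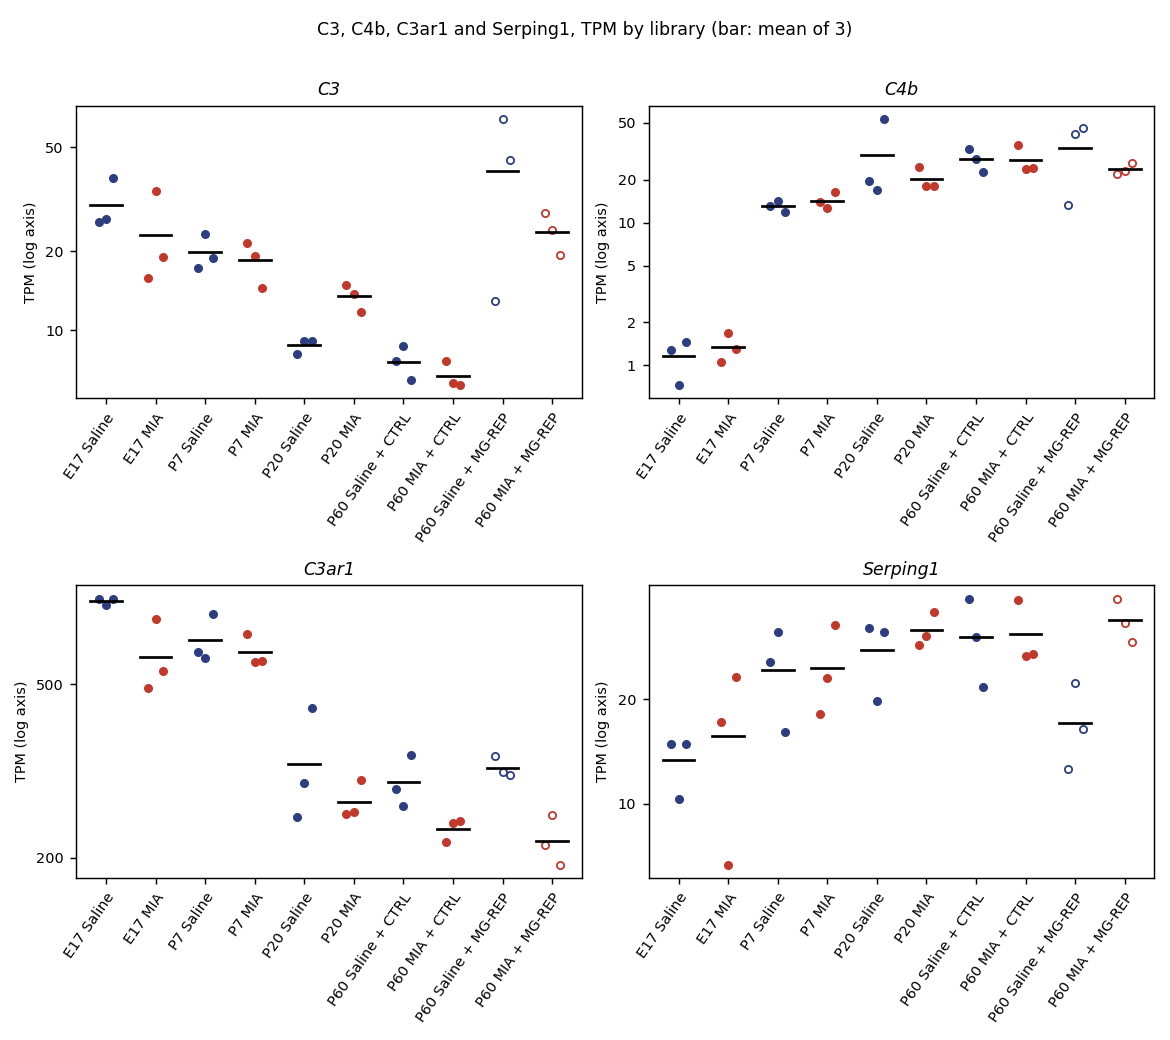
TPM of C3, C4b, C3ar1 and Serping1 (log axes) in each of 30 libraries by group, with blue for Saline, red for MIA, open points for MG-REP and bars for the mean of 3. C3 lies at 6.18 to 8.67 TPM in the CTRL libraries of P60 and at 12.9 to 64.1 TPM in the MG-REP libraries.

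C3ar1, the C3a receptor, fell between P7 and P20 in both treatments. In Saline offspring it had 786, 762 and 785 TPM at E17, 594, 575 and 726 TPM at P7 and 248, 297 and 441 TPM at P20. In MIA offspring it had 490, 706 and 537 TPM at E17, 653, 563 and 566 TPM at P7 and 252, 255 and 301 TPM at P20. Every P20 library was below every P7 library. The log2 fold change from P7 to P20 was -0.97 ± 0.16 (adjusted p = 5.03e-05) in Saline and -1.14 ± 0.16 (adjusted p = 7.13e-06) in MIA offspring, and both calls held under all alternatives. The border macrophage markers (6 measured of 7) summed to 1796 to 1987 TPM at P7 and 692 to 890 TPM at P20 in Saline libraries. In MIA libraries they summed to 1029 to 2068 TPM and 626 to 716 TPM. The group means of Mrc1, Pf4, Lyve1 and F13a1 fell in both treatments. Those of Cbr2 rose, from 120.9 to 154.3 TPM in Saline and from 110.2 to 142.9 TPM in MIA offspring, as did those of Cd163 (0.74 to 1.12 and 0.50 to 0.92 TPM). The part of border macrophages in the C3ar1 values was not tested. Over the 10 group means C3ar1 ran opposite to the C1q chains, with correlations of -0.89 to C1qa, -0.77 to C1qb and -0.80 to C1qc. The genes most like it were Sqstm1 (r = 0.99), Ehd4 (0.99) and Pced1b (0.99).

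Between MIA and Saline offspring, C3ar1 was lower in repopulated microglia. It had 343, 315 and 310 TPM in Saline + MG-REP and 214, 251 and 193 TPM in MIA + MG-REP libraries, which did not overlap. The log2 fold change was -0.56 ± 0.16 (adjusted p = 0.0130). Of the 7 members, 2 passed this comparison, where 22% of rows did. The adjusted p of C3ar1 was 0.0663 without the first Saline + MG-REP library, 0.0721 without the third MIA + MG-REP library and 0.0654 after quantile normalization. On control chow C3ar1 had 288, 263 and 345 TPM in Saline and 217, 240 and 243 TPM in MIA offspring, which did not overlap either, at a log2 fold change of -0.35 (unadjusted p = 0.0410, adjusted p = 1.0). The difference of the MG-REP effect between MIA and Saline offspring was -0.22 for C3ar1 (adjusted p = 0.685). MG-REP against CTRL gave 0.12 (adjusted p = 0.645) in Saline and -0.10 (adjusted p = 0.979) in MIA offspring.

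Serping1, the C1 inhibitor, was the other member to pass between the repopulated groups, where it was higher in MIA offspring. It had 12.6, 22.3 and 16.4 TPM in Saline + MG-REP and 38.9, 33.2 and 29.2 TPM in MIA + MG-REP libraries. The groups did not overlap, and the log2 fold change was 0.97 ± 0.33 (adjusted p = 0.0368). The adjusted p was 0.196 without the first and 0.0736 without the third Saline + MG-REP library, and 0.126, 0.0826 and 0.0525 without each MIA + MG-REP library. In CTRL libraries Serping1 had 38.9, 30.2 and 21.6 TPM in Saline and 38.7, 26.6 and 27.0 TPM in MIA offspring, which overlapped. MG-REP against CTRL gave -0.79 in Saline (adjusted p = 0.0822) and 0.14 in MIA offspring (adjusted p = 0.979), with a difference of 0.93 (95% interval -0.03 to 1.89, adjusted p = 0.241).

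The Saline value of Serping1 was near the threshold. Its adjusted p was 0.0403 with Xist as a covariate, 0.0483 without Saline + CTRL library 3 and 0.0492 without Saline + MG-REP library 2. Fibroblast and mural markers moved with Serping1 at P60, at 136, 326 and 237 TPM in Saline + MG-REP, 341 to 656 TPM in Saline + CTRL, 488 to 636 TPM in MIA + MG-REP and 415 to 816 TPM in MIA + CTRL libraries. Endothelial markers summed to 340 to 691 TPM in Saline + MG-REP and 966 to 1299 TPM in MIA + MG-REP libraries. Their part in the result was not tested. At the earlier ages Serping1 had 14.9, 10.3 and 14.9 TPM in E17 Saline, 17.2, 6.68 and 23.1 TPM in E17 MIA, 25.5, 31.3 and 16.1 TPM in P7 Saline and 18.1, 23.0 and 32.7 TPM in P7 MIA libraries. It reached 32.0, 19.8 and 31.3 TPM in P20 Saline and 28.7, 30.4 and 35.7 TPM in P20 MIA libraries. No age step of Serping1 passed, and its E17 to P7 log2 fold changes were 0.79 (adjusted p = 0.191) and 0.73 (adjusted p = 0.343). The genes most like it over the group means were Lrig3 (r = 0.98), Gm10790 (0.97) and Rnf139 (0.97).

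**Figure D4:**
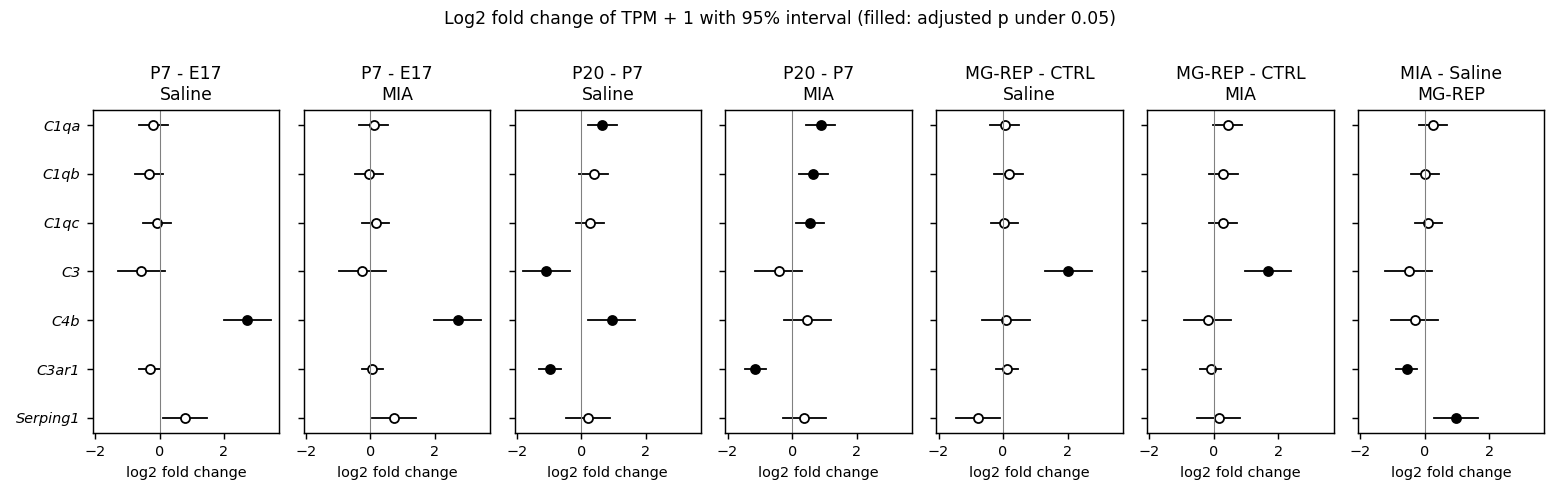
Log2 fold change of TPM + 1 (horizontal axis) with its 95% interval for the 7 members in 7 contrasts, filled where the adjusted p is under 0.05. C3 is filled in both MG-REP contrasts (2.02 and 1.68), C4b in both E17 to P7 contrasts (2.72 and 2.70), and C3ar1 in both P7 to P20 contrasts (-0.97 and -1.14).

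Whether maternal immune activation altered the members at a given age was tested at E17, P7, P20 and P60 on control chow. In limma 0 of 7 members and 0% of the rows passed at any of these ages. Of the 14225 rows, 585, 335, 457 and 256 had an unadjusted p under 0.05. Each is a smaller share than that threshold alone gives by chance. The 3 C1q chains had log2 fold changes of -0.36 to -0.38 at E17 (adjusted p = 0.754), with MIA library 1 at 3523 TPM of C1qa and MIA library 2 at 5962 TPM. C3ar1 had -0.45 there (unadjusted p = 0.0103, adjusted p = 0.754). The MIA libraries low in these genes, 1 and 3, were high in neuron markers (1108 TPM in library 1, against 150.0 to 303 TPM in Saline) or choroid plexus markers (12240 TPM in library 3, against 1409 to 3084 TPM in Saline), whose part was not tested. At P20, C3 was higher in every MIA library (11.8 to 14.9 TPM) than in every Saline library (8.14 to 9.12 TPM), for a log2 fold change of 0.56 (95% interval -0.16 to 1.28, adjusted p = 1.0). At P7 and P60 the members' log2 fold changes lay between -0.35 and 0.12. The contrasts from P20 to P60 gave 0 of 7 members in either treatment, where 3.51% of rows in Saline and 2.6% in MIA offspring passed. C3 in MIA offspring had -0.91 there (adjusted p = 0.166), and the adjusted p was 0.0418 in a fit of the compared groups alone.

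The authors' grouping of the rows into 5 modules, made from these same libraries, placed C1qa, C1qb, C1qc, C4b and Serping1 in the adult microglia module, C3ar1 in the immature module and C3 in the module of repopulated adult microglia.

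Among 51 other complement-related genes, 26 were measured. Between P7 and P20, 4 rose and 9 fell in Saline offspring, where 36.2% of all rows passed, and 4 rose and 10 fell in MIA offspring, where 35.6% did. The median log2 fold change of the 26 was -0.18 and -0.16, and that of all rows was -0.02 and -0.09. Clu, which encodes clusterin, an inhibitor of the terminal complex, rose from 223 to 1434 TPM in Saline (log2 fold change 2.68, adjusted p = 0.000481) and from 319 to 939 TPM in MIA offspring (1.73, adjusted p = 0.0153). Fcna, a lectin pathway recognition protein, fell from 143 to 27.9 TPM (-2.31) and from 131 to 18.3 TPM (-2.74). Itgax, which encodes the CD11C chain of a receptor for C3 fragments, fell from 95.6 to 17.5 TPM (-2.37) and from 78.2 to 19.6 TPM (-1.89). Csmd3, a membrane protein with domains like those of complement regulators, rose from 2.29 to 13.4 TPM (2.10) and from 2.40 to 17.01 TPM (2.56). Clu is also a known astrocyte product, and its call in MIA offspring was lost without P7 MIA library 1 or 2 or P20 MIA library 1 (log2 fold change 1.37, 1.61 and 1.63, adjusted p = 0.0868, 0.0515 and 0.0517). From E17 to P7, Itgax (0.73) and Colec12 (0.56) rose in Saline and Itgax (0.86) and C6 (0.61) in MIA offspring, and these calls were lost under 7 to 10 of their 13 or 14 alternatives. From P20 to P60 none of the 26 passed, nor did any between MIA and Saline offspring at E17, P7, P20 or P60 on control chow.

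After repopulation 4 of the 26 rose and 3 fell in Saline offspring, where 26.7% of all rows passed. In MIA offspring, where 0.555% of all rows passed, Itgax rose and none of the other genes passed. The median of the 26 was -0.22 and -0.01, against -0.14 and -0.08 over all rows. Itgax had 18.9, 14.8 and 19.9 TPM in Saline + CTRL and 88.5, 100.6 and 76.8 TPM in Saline + MG-REP libraries (log2 fold change 2.25, adjusted p = 1.38e-08). In MIA offspring it had 13.7, 15.7 and 19.6 TPM in CTRL and 49.7, 54.8 and 44.3 TPM in MG-REP libraries (1.55, adjusted p = 0.000164). All MG-REP libraries were above the controls in both. As for C3, sex and MG-REP cannot be fully told apart in these contrasts, because Xist was low in most CTRL libraries.

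Cfp, which encodes properdin, the stabilizer of the alternative pathway convertase, moved in Saline offspring. It had 33.7, 30.1 and 23.6 TPM in Saline + CTRL and 332, 133 and 113 TPM in Saline + MG-REP libraries (log2 fold change 2.53, adjusted p = 1.24e-07). MIA + CTRL libraries had 26.7, 25.6 and 23.4 TPM and MIA + MG-REP libraries 22.9, 28.9 and 21.4 TPM, which overlapped. The difference between the effects in MIA and Saline offspring was -2.59 (adjusted p = 6.45e-05). Border macrophage markers, with the rise in Pf4 given above, summed to 1320, 687 and 689 TPM in the same Saline + MG-REP libraries and to 422 to 568 TPM in Saline + CTRL. Microglia markers were lower in Saline + MG-REP (16890 to 19250 TPM) than in Saline + CTRL libraries (29050 to 41280 TPM). The part of these in the Cfp values was not tested. Csmd3 fell in Saline offspring, with 29.3, 25.6 and 30.7 TPM in CTRL and 0.35, 1.19 and 1.72 TPM in MG-REP libraries (-3.88, adjusted p = 5.63e-09). It had 26.8, 28.2 and 29.9 TPM in MIA + CTRL and 10.1, 11.6 and 12.1 TPM in MIA + MG-REP libraries. Every MIA + MG-REP library was thus also below the controls, but Csmd3 did not pass there. The effects differed by 2.61 (adjusted p = 0.000724). C2, which encodes the protease of the classical C3 convertase, fell in Saline offspring, with 11.8, 13.9 and 8.91 TPM in CTRL and 0.99, 2.99 and 3.21 TPM in MG-REP libraries (-1.94, adjusted p = 2.55e-06). It was also below the controls in every MIA + MG-REP library, with 8.58, 9.98 and 8.22 TPM in MIA + CTRL and 4.46, 4.26 and 5.69 TPM in MIA + MG-REP libraries, but did not pass there (-0.78, adjusted p = 0.310).

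Between the repopulated groups, which share their libraries with the contrasts above, 3 of the 26 genes were higher and 4 lower in MIA than in Saline offspring, and 22% of all rows passed. Cfp (-2.77), Csmd3 (2.61) and Fcna (-1.62) had the largest log2 fold changes. The call of Fcna was lost in a fit of only the groups compared (adjusted p = 0.107). The median log2 fold change of all rows in this contrast was 0.12, and after median-ratio scaling, with a median of 0.05, the members C3ar1 and Serping1 had -0.67 and 0.87.

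**Figure D5:**
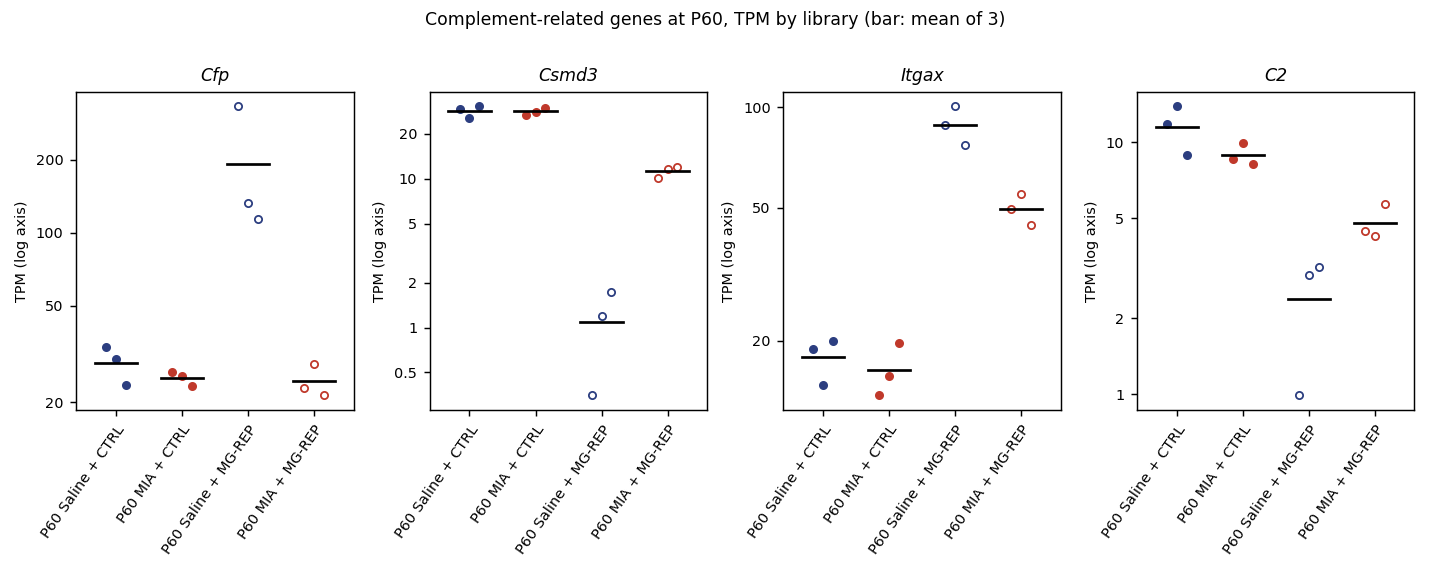
TPM of Cfp, Csmd3, Itgax and C2 (log axes) in the 12 libraries of P60, with blue for Saline, red for MIA, open points for MG-REP and bars for the mean of 3. Cfp lies at 113 to 332 TPM in Saline + MG-REP libraries and at 21.4 to 33.7 TPM in all others, and Csmd3 is lowest in Saline + MG-REP.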

How the data were processed

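RNA of CD11B bead-isolated microglia was sequenced by the authors from non-stranded poly(A) libraries. Rsubread (genome build mm10) and featureCounts were used by the authors, who kept genes by a CPM filter and deposited TPM for 14225 transcripts, the unit used here. How the TPM were computed is not given in the sources used here, and the reads behind each value are not in the table used here, so no count model and no counting interval was used. Libraries were grouped by their titles, 3 per group. In R 4.3.3, limma 3.58.1 was fitted with a mean-variance trend to log2(TPM + 1) of all 30 libraries (20 residual degrees of freedom), with 14 contrasts, two-sided tests and Benjamini-Hochberg adjustment over all rows at 0.05. The fit was tested on simulated data. P-values measure the spread between litters, pools or brains, which the fit takes together as 1 variance per row. The labels do not give the litter of P7, P20 and P60 libraries. Libraries of a group may thus share a dam, the animal that received saline or poly(I:C). The members and lists were chosen with earlier results of these data known. Named genes were all members, at most 4 other complement genes with the largest fold change among those past the threshold in a contrast, and the 3 genes most correlated with each member over group means, among genes with at least 5 TPM in 1 group mean. A gene that this rule selects in the contrast between the repopulated groups is not reported here. Any other gene was named as a marker, a near copy or an overlapping gene. Coordinates and promoters came from RefSeq (GRCm38.p6), and motifs were searched on both strands. Alternatives were a pseudocount of 0.1, scaling by median ratios, normalization of quantiles, a filter on mean TPM below 1, a block for the replicate number, only the groups compared, Xist as a covariate, moderation without trend and each library left out. Plots used Python 3.11.15 with matplotlib 3.10.9.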

Additional observations from a re-analysis of the deposited data

Results flagged for a closer look

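The effect of MG-REP differed between MIA and Saline offspring in 6 of the 26 other complement genes, with 4 differences above 0 and 2 below, by the interaction term of limma, which 10.5% of all rows passed. Values are given for 4 of them. The difference of log2 fold changes, MIA minus Saline, was 2.61 for Csmd3, -2.59 for Cfp, 1.16 for C2 (adjusted p = 0.0382) and 1.10 for C1ra (adjusted p = 0.0421), which encodes a protease that travels with C1q. The differences of Csmd3 and Cfp passed under all 20 alternatives, whereas that of C2 was lost under 11 of 20 and that of C1ra under 14 of 20, leaving out single libraries included. The mean ratio of C1qb to C1qa TPM was higher in MG-REP than in CTRL libraries by 0.0867 in Saline offspring and lower in MIA offspring, with a change of -0.0835. All libraries of a group lay on the same side, and this difference was not tested.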

How the results depend on the processing

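Over the age steps the members gave 5 calls in Saline offspring, C4b in both steps, and 5 in MIA offspring, where the number was 3 after median-ratio scaling and likewise 3 after normalization of quantiles. Leaving out 1 library at a time gave 3 to 5 in Saline and 3 to 5 in MIA offspring. For MG-REP against CTRL the count in Saline offspring was 1, with 0 in a fit of only the groups compared, 2 with Xist as a covariate and 1 to 2 with a library left out. In MIA offspring it was 1, with 0 under the replicate block, 0 with Xist as a covariate and 0 to 1 with a library left out. For MIA against Saline in MG-REP offspring it was 2, with 1 after quantile normalization and 0 to 2 with a library left out. It was 0 under all alternatives, 0 to 0 with a library left out, for MIA against Saline at each age and for the difference of the MG-REP effect. Some single values changed sign, with causes that were not tested. C1qc from P7 to P20 in MIA offspring was -0.026 after quantile normalization. The difference of the MG-REP effect on C3 ran from -0.998 to 0.11 with a library left out, the latter without Saline + MG-REP library 2, and Serping1 under MG-REP in MIA offspring was -0.24 with Xist as a covariate. C4b under MG-REP in Saline offspring was -0.19 with Xist, -0.04 without Saline + CTRL library 3, -0.15 and -0.22 without Saline + MG-REP libraries 2 and 3, and at most 0.64, without library 1. C1qa in the same contrast was -0.10 after quantile normalization and ran from -0.12 without Saline + CTRL library 2 to 0.20 without library 3. C3 between MIA and Saline in MG-REP offspring was -1.15 (adjusted p = 0.00268) without Saline + MG-REP library 1 and -0.04 without library 2. Itgax, Colec12 and C6 from E17 to P7 lost their calls under 7 to 10 of their 13 or 14 alternatives, and Fcna between MG-REP groups under 1 of 14. Libraries of the same number deviated together in all 3 pairs at P20 alone (correlations 0.238, 0.104 and 0.132), so the pairing was not taken as part of the design, and with the replicate block C3 in MIA offspring (adjusted p = 0.0739) was the only member whose call was lost. Low levels, such as C4b at E17, and 3 libraries per group limit what could be detected.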
